A study of Rattus norvegicus with 24 samples.

Results

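The comparison described here is that of rat left ventricle 1 day after a myocardial infarction (MI) with left ventricle 1 day after a sham operation. Its members are the 12 arrays whose titles name day 1, 6 MI and 6 sham, out of 24 arrays in all; the other 12 are the day 7 arrays, again 6 of each operation. Each array measured total RNA of the heart of an operated rat. No source used here states the strain, sex or age, the way the infarct was made or the array platform. The titles were followed for the day, although the free text of the day 1 sham samples names day 7. Tissue from MI hearts was left ventricle with septum from which the infarct zone had been left out, whereas sham tissue was left ventricle with septum as a whole, so the operation and the part of the ventricle sampled cannot be told apart. Nothing in the labels says that the 6 arrays of a group came from 6 rats, so the p-values measure the spread between arrays, which may be technical.

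After an infarction the muscle that lost its blood supply dies, while the surviving muscle of the same ventricle takes over the load. In the first days inflammatory cells enter the injured tissue, and the surviving muscle is known for raising genes of stretch, stress and matrix turnover, among them the natriuretic peptides. A sham operation shares the anaesthesia and the opened chest but not the lost blood supply. Which of these genes moved here cannot be said. The table names its probes by IDs starting in R or RG, 0 of which matched a gene name at hand, and so the lists of heart genes and the cell type markers drawn up for this comparison could not be applied. Probes are given by ID below, and no sequence is printed for them. In tissue RNA such as this, fewer cells of a type and less RNA per cell cannot be told apart.

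The values are positive intensities in arbitrary units, and many cells of the table are blank. On the day 1 arrays 71.1% of all cells were blank. Of 1184 probes (R371, fixed at 100 on every array, was left out), 426 had no value on any day 1 array and 758 had at least 1. Among the 758, 283 had at least 3 values in each group and were tested, 96 reached 3 values in MI alone, 51 in sham alone and 328 in neither. The tested probes comprised 159 R and 124 RG probes, and 99 of them had a value on all 12 arrays.

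The 12 arrays were of 2 kinds. The arrays titled A507 to A512, 3 sham and 3 MI, had values for fewer than 300 probes apiece and are termed sparse; the other 6, again 3 of each operation, listed 421 to 559. Sparse sham arrays listed 141, 174 and 197 probes and sparse MI arrays 200, 251 and 296, so that these groups did not overlap. The other sham arrays listed 421, 433 and 559 probes and the other MI arrays 452, 461 and 526, which overlapped. Permuting the operations within the sparse and within the other arrays, the mean excess of 43.5 probes in MI had a two-sided exact permutation p of 0.175, and within the sparse arrays alone the excess of 78.3 had p = 0.1, the smallest that 3 against 3 can give.

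The level of the probes that every array listed moved in the same way. The median over all probes listed on an array did not, and was 93.3 to 107.5 on the day 1 arrays. For the 94 probes listed on all 24 arrays, called complete probes, the median deposited intensity was 117.5, 171.9 and 179.4 on the sparse sham arrays and 164.4, 233.3 and 250.3 on the sparse MI arrays, while on the other arrays it was 296.2, 306.5 and 332.8 in sham and 290.0, 335.9 and 338.3 in MI. The difference between MI and sham in this median, on the log2 scale, was 0.47 in the sparse arrays (two-sided exact permutation p = 0.300) and 0.04 in the others (exact permutation p = 0.800). The part of these complete-probe levels in the differences of single probes was not tested. Calls are given on 2 scales, as deposited and after complete-probe scaling, in which each array was shifted so that the complete probes had the same median log2 intensity on every array.

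**Figure D1:**
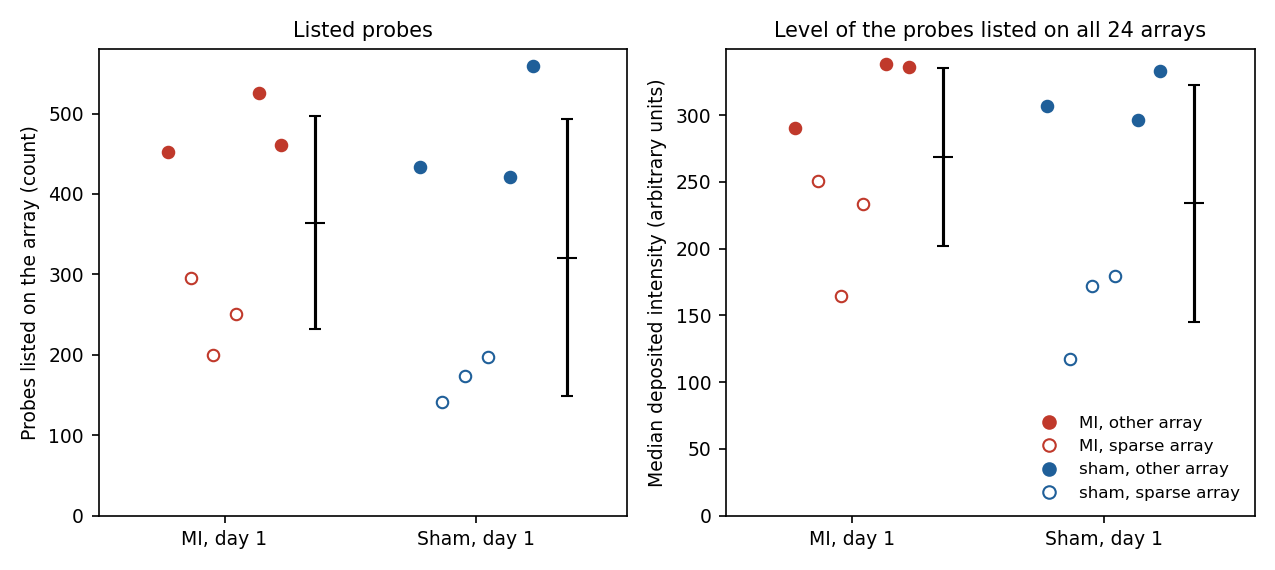
Each point is 1 day 1 array, open for the sparse arrays A507 to A512, and the bars give the mean and SD of the 6 arrays of a group. The left panel shows the number of listed probes (141 to 559), the right panel the median deposited intensity of the complete probes in arbitrary units (117.5 to 338.3), and the sparse sham arrays are lowest on the left, while on the right 1 sparse MI array (164.4) lies among them.

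With sparse or not as a block, 19 of the 283 probes (6.71%) were higher in MI and 0 lower on the deposited scale (limma, adjusted p under 0.05; 66 and 2 at an unadjusted p under 0.05), by 1.39-fold to 2.22-fold. The median log2 difference over all 283 probes was 0.18 on that scale, with 216 probes higher in MI and 67 lower. Complete-probe scaling brought the median to 0.01, with 144 higher and 139 lower, and 10 probes (3.53%) were then called. Of these, 9 (3.18%) were higher in MI, by 1.46-fold to 2.16-fold, and 1 was lower. All 9 were among the 19, so 9 probes were called higher 1 day after infarction on both scales, 6 of them R and 3 RG probes. The other 10 of the 19 also had positive differences after complete-probe scaling, of 0.22 to 0.87 on the log2 scale, but did not pass.

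Probe R592, the first of the pair the naming rule took upward, was at 246.5, 216.2, 122.2, 198.8, 307.9 and 244.0 in MI replicates 1 to 6, and at 218.8, 52.2, 60.4, 57.6, 167.2 and 229.7 in sham replicates 1 to 6. In both groups replicates 2, 3 and 4 were the sparse arrays. The sparse sham values were the lowest, and the groups overlapped on the deposited scale. After complete-probe scaling R592 was at 189.4 to 237.4 in MI and 83.7 to 186.2 in sham, with no overlap. The log2 difference was 1.00 (SE 0.18, limma adjusted p = 0.00121) as deposited and 0.74 (SE 0.13, adjusted p = 0.000472) after scaling.

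Probe R364, the other probe named upward, was at 408.9, 399.9, 295.6, 384.4, 434.6 and 395.8 in MI and at 286.4, 119.7, 182.6, 188.9, 330.6 and 275.0 in sham. MI replicate 3, a sparse array, was below the highest sham value, so the groups overlapped as deposited. After complete-probe scaling the MI values were 307.3 to 468.9 and the sham values 215.5 to 291.1, which did not overlap. R364 had a log2 difference of 0.82 (SE 0.15, adjusted p = 0.00121) as deposited and 0.56 (SE 0.09, adjusted p = 0.000301) after scaling.

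A further 3 of the 9 probes are named although they fall outside the rule and were chosen after their values were seen. After complete-probe scaling RG421 was the single probe still called when the sparse arrays were left out. As deposited RG421 was not called in that fit (limma adjusted p = 0.0935). It was at 334.9, 278.6, 164.6, 307.7, 394.9 and 393.0 in MI and 262.5, 101.3, 138.0, 142.9, 192.3 and 260.5 in sham. Only MI replicate 3 lay within the sham range as deposited, and after complete-probe scaling the ranges, 261.2 to 344.0 in MI and 169.3 to 224.8 in sham, were apart. Its log2 difference was 0.80 (SE 0.16, adjusted p = 0.00144) as deposited and 0.55 (SE 0.09, adjusted p = 0.000301) after scaling.

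RG316 was at 360.2, 367.3, 259.1, 417.1, 409.4 and 493.7 in MI and 239.3, 84.6, 169.9, 183.5, 262.6 and 247.4 in sham, where MI replicate 3 fell just under the highest sham value. After complete-probe scaling it was at 315.7 to 466.3 in MI and 187.7 to 266.8 in sham, without overlap, and the log2 difference was 0.77 (SE 0.18, adjusted p = 0.0127). R642 had the largest difference of the 9. It was at 155.4, 93.6, 100, 119.8, 137.8 and 108.7 in MI but had only 3 sham values, 51.1, 71.7 and 57.9 on replicates 1, 5 and 6, and was blank on every sparse sham array. Its MI values lay above its sham values on both scales, and its log2 difference was 1.15 (SE 0.28, adjusted p = 0.0117) as deposited and 1.11 (SE 0.29, adjusted p = 0.0324) after scaling, which rests on the 6 arrays that were not sparse.

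Of the 99 probes with a value on all 12 arrays, 0 (0%) had every deposited MI value above every sham value, whereas 4 (4.04%) did after complete-probe scaling, namely R592, R364, RG421 and RG316. For the 7 of the 9 called probes that were listed on all 12 arrays, permuting the operations within the sparse and within the other arrays gave two-sided exact permutation p-values of 0.005 to 0.020 as deposited and 0.005 to 0.015 after scaling, where 0.005 is the smallest that 400 arrangements can give. These 7 were picked by the fit to the same values, so this is a second way of testing and no independent evidence.

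**Figure D2:**
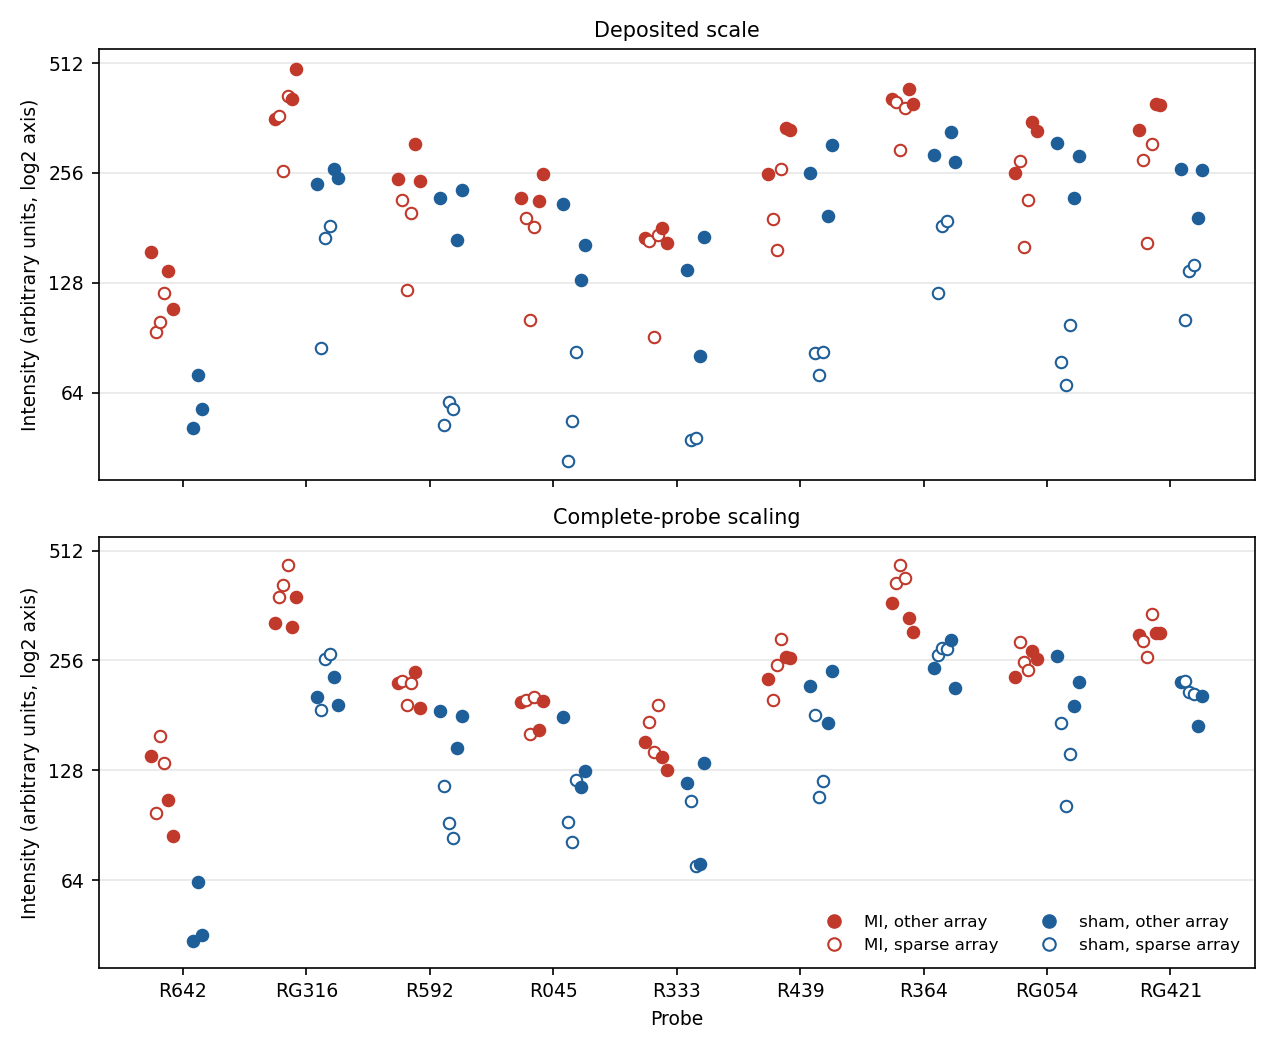
Intensities (arbitrary units, log2 axis) of the 9 probes called on both scales, as deposited (top) and after complete-probe scaling (bottom), with 1 point per day 1 array and open points for the sparse arrays. As deposited the lowest point is a sparse sham array for each probe but R642, which has no value on those arrays, and after scaling R642, RG316, R592, R364 and RG421 have all MI points above all sham points.

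No probe passed the test as lower on the deposited scale, where 67 of the 283 had negative differences. R706, named by the rule as first downward, was at 125.2, 64.2 and 60.7 in MI replicates 1, 5 and 6 and at 140.9, 137.9 and 130.5 in sham replicates 1, 5 and 6, and blank on all sparse arrays. Its deposited values did not overlap, its scaled values did (47.1 to 112.6 in MI, 102.2 to 121.4 in sham), and its log2 difference of -0.79 (SE 0.28, adjusted p = 0.0925) did not pass. RG288, the other probe named downward, had 5 MI values of 46.6 to 311.4 and 6 sham values of 84.7 to 375.1, with a log2 difference of -0.40 (SE 0.25, adjusted p = 0.359). After complete-probe scaling RG288 differed by -0.71 (SE 0.30, adjusted p = 0.180), with -1.40 in the sparse arrays and -0.16 in the others.

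R373, chosen after its values were seen, was the probe that fell after complete-probe scaling, by 0.53 in log2 units (limma, SE 0.14, adjusted p = 0.0372). Its scaled values were 72.2, 79.8, 64.7, 59.9, 73.7 and 73.8 in MI and 76.5, 155.0, 126.4, 88.0 and 74.2 in sham, with no value on sham replicate 3. The pair of high sham values came from sparse arrays, and the sham values of the other arrays lay close to those of MI. Within the other arrays the scaled difference of R373 was -0.12, against -1.05 in the sparse arrays, and as deposited it did not pass (-0.26, SE 0.16, adjusted p = 0.318). The scaled call of R373 was lost without the block (limma adjusted p = 0.0943) and without the sparse arrays (0.855). It was also lost without MI replicate 2, 3 or 4 (adjusted p = 0.0517, 0.0698 and 0.103) or sham replicate 2 or 4 (0.195 and 0.112), all sparse arrays.

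The sparse and the other arrays share no array, so each gives its own look at the same comparison. Over the 99 probes listed on all 12 arrays, the median log2 difference between MI and sham was 0.47 in the sparse arrays and 0.01 in the others as deposited, and 0.00 and -0.03 after complete-probe scaling, which centres most of these probes by construction. The scaled differences had the same sign in both sets for 63 of 99 probes, 26 higher and 37 lower, with a correlation across probes of r = 0.469; probes of 1 array share its RNA and its scaling, so this is a description. All 7 called probes with 12 values were higher in both sets, by 0.47 to 1.15 in the sparse arrays and 0.17 to 0.70 in the others, where 48 and 40 of the 99 were higher. These 7 were picked by a fit to the same arrays, so their signs are a description.

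The 7 probes were not alike in this respect. RG421 had scaled log2 differences of 0.47 in the sparse arrays and 0.62 in the others, and RG316 of 0.84 and 0.70. R592 was at 1.15 and 0.34, and R364 at 0.68 and 0.44. In 6 of the 7 the sparse arrays gave the larger value. Whether a difference depended on the kind of array was not tested.

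**Figure D3:**
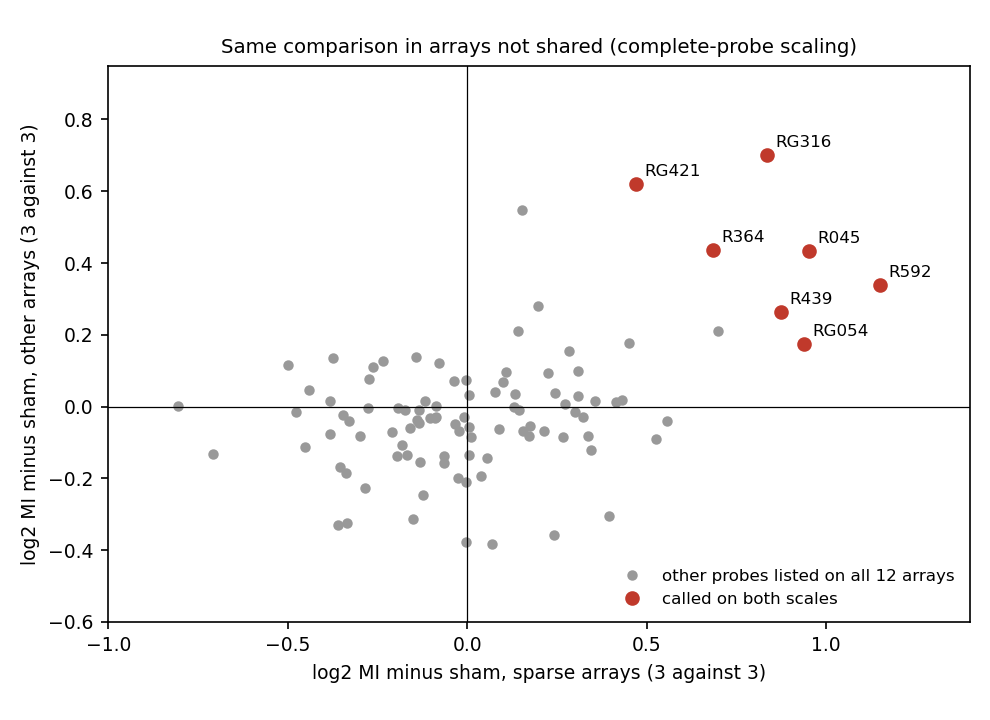
Log2 difference between MI and sham in the 3 against 3 sparse arrays (horizontal) and in the 3 against 3 other arrays (vertical), after complete-probe scaling, for the 99 probes listed on all 12 arrays. The 7 called probes (red) lie to the right of and above 0, at 0.47 to 1.15 and 0.17 to 0.70.

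Leaving out the sparse arrays, 3 MI and 3 sham arrays remained at day 1. With limma 0 of 251 probes passed as deposited (18 had an unadjusted p under 0.05, and the smallest adjusted p was 0.0935) and 1 of 251 (0.398%), RG421, after complete-probe scaling (adjusted p = 0.00702; 22 at an unadjusted p under 0.05). With only the sparse arrays at day 1, 48 of 106 probes were called as deposited, all higher, while 10 were called after scaling, 7 higher and 3 lower, 6 of them among the 9. Without the block 0 of 283 passed as deposited (22 at an unadjusted p under 0.05), and 10 after scaling, among them all 9. The number of deposited calls thus turned on how the sparse arrays were handled, and the scaled calls did so when these arrays were left out.

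Single arrays moved the deposited count as well. It was 38 of 236, 11 of 276, 32 of 279 and 9 of 280 without MI replicates 1, 2, 3 and 4. Without sham replicates 1, 2, 3, 4 and 6 it was 30 of 188, 11 of 283, 11 of 280, 12 of 280 and 36 of 188. The number tested differed because each group still needed 3 values, and its part in these counts was not tested. After complete-probe scaling the count stayed between 8 and 14 for each of the 12 arrays left out. R592, R364, RG421, RG316, R045 and R439 were called in all 24 of these fits, 12 on each scale. R333 and RG054 were called in 23 each, and R642 in 16 of the 18 in which it had enough values.

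The day 7 arrays, which share no sample with day 1, show the same 9 probes in other hearts. After complete-probe scaling all 9 had a positive difference between MI and sham at day 7, from 0.06 to 1.03 on the log2 scale with a median of 0.27, against a day 1 median of 0.67 and a day 7 median over all probes of 0.01. The 9 were picked by their day 1 differences, which tends to raise their day 1 median, so the medians of the 2 days are not on equal terms. R642 had 1.11 at day 1 and 1.03 at day 7, and RG316 0.77 and 0.85. R592 had 0.74 at day 1 and 0.06 at day 7, and R364 0.56 and 0.10. No day 7 array was sparse, whereas the day 1 values of R592, R364 and RG316 draw on both kinds of array. Within the day 1 arrays that were not sparse, the scaled differences were 0.34 for R592, 0.44 for R364, 0.70 for RG316 and 1.11 for R642. The part of the kind of array in the gap between the days was not tested. As deposited, R592 ranged from 210.3 to 254.4 on the 6 MI arrays of day 7 and from 178.4 to 265.9 on the 6 sham arrays, so its groups overlapped there.

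The difference between the MI effects of the 2 days was tested in the same limma fit. As deposited 0 of 275 probes (0%) passed, although 21 had an unadjusted p under 0.05, and the lowest adjusted value was 0.461. After complete-probe scaling 0 passed, although 18 had an unadjusted p under 0.05, and the lowest adjusted p was 0.171, which belonged to R592 and R364 (differences of -0.68 and -0.46, day 7 minus day 1). In 8 of the 9 probes the day 7 effect was the smaller, but none of these differences passed, with adjusted p-values of 0.171 to 0.990. Because the 9 were picked by their day 1 effect, a smaller day 7 effect is favoured by that choice, and the count of 8 is a description. With the sparse arrays as the only day 1 arrays, 14 of 106 probes passed this test as deposited and 5 of 106 after scaling. No day 7 array was sparse, so in this fit the day and the kind of array cannot be told apart. The counts of 0 thus turned on which day 1 arrays entered, and the counts of 14 and 5 are not differences between days alone.

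**Figure D4:**
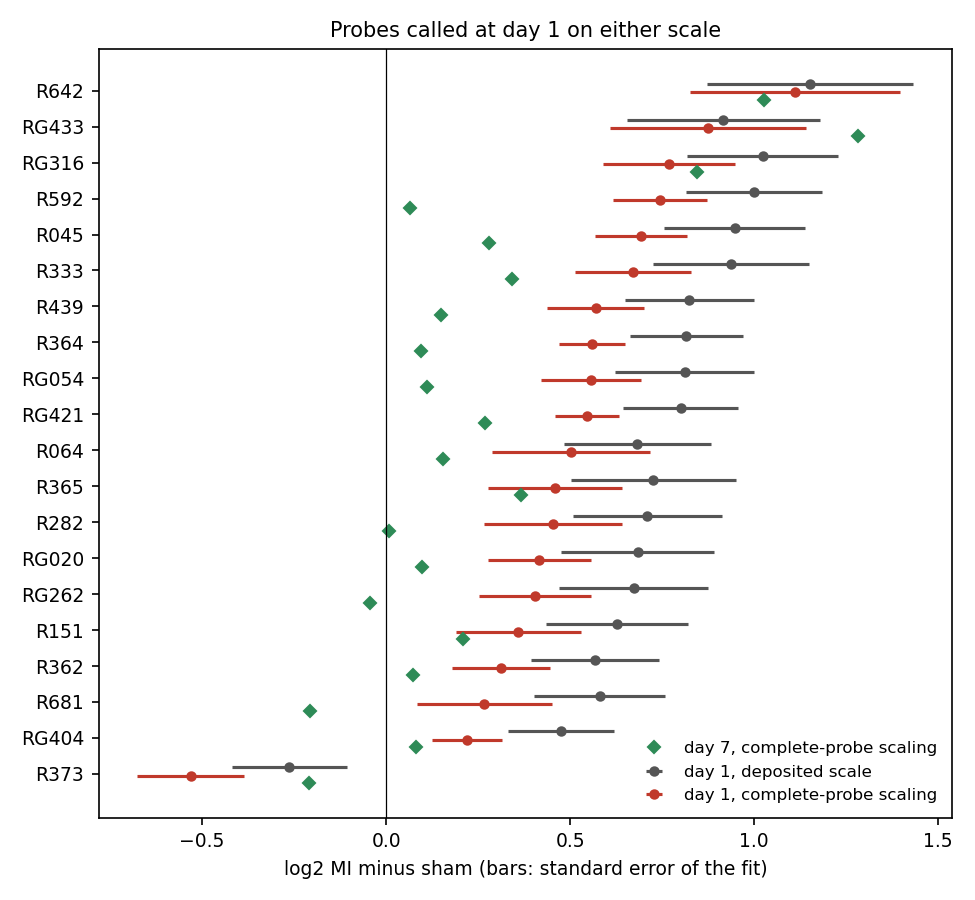
Log2 difference between MI and sham for the 20 probes called at day 1 on either scale, with the standard error of the fit, as deposited (grey) and after complete-probe scaling (red), and the scaled day 7 difference (green, no error drawn). R642 and RG316 lie near their day 1 values at day 7, R592 and R364 near 0, and R373 is the only probe below 0 at day 1.

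Because most cells were blank, the pattern of blanks was described as well. No source used here says what a blank stands for, and no level was put in its place. More MI than sham arrays listed 312 probes, and more sham than MI arrays listed 174; for a gap of at least 3 arrays the counts were 36 and 6. For a gap of any size, most of the excess lay in the sparse arrays, where 197 probes were listed on more MI and 48 on more sham arrays. In the others the counts were 182 and 168. For a gap of 3 arrays within a set, the counts were 12 and 0 in the sparse arrays and 13 and 4 in the others.

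The largest gap was 5 arrays, shared by 3 probes, of which the rule named the brighter pair, RG474 and R272 (the other, R555, was looked up after the values were seen), each listed on all 6 MI arrays and on 1 sham array. RG474 was at 244.5, 237.5, 180.6, 253.8, 283.5 and 282.4 in MI and at 112.7 on sham replicate 3, a sparse array. It was thus blank on all 3 sham arrays that were not sparse, although these listed 421 to 559 probes. R272 was at 229.2, 126.6, 107.9, 157.6, 183.6 and 125.6 in MI and at 77.8 on sham replicate 6.

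RG474 was bright on the MI arrays. Among the 83 probes listed on all 6 MI arrays with a mean of at least 200 there, 77 were listed on all 6 sham arrays, 5 on 2 to 5 of them and 1, RG474, on 1. This set was chosen through the MI arrays alone, where RG474 is high, and no such set was drawn through the sham arrays, so these counts are a description. On the arrays that were not sparse, 730 probes were listed, 13 of them on 3 MI and 0 sham arrays and 4 on 0 MI and 3 sham arrays. The 4 had sham means of at most 76.8. Of the 13, RG474 had the highest MI mean, 270.1, followed by 85.5. At day 7 it was listed on 5 of 6 MI arrays, at 238.3 to 318.3, and on 2 of 6 sham arrays, at 150.1 to 178.8. R272 was listed at day 7 on 5 arrays of each operation, at 93.6 to 163.8 in MI and 29.5 to 69.5 in sham. Neither probe had enough sham values at day 1 for a test.

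In the other direction the largest gap was 3 arrays, shared by 6 probes, of which the rule named the brightest pair, RG439 and RG387. RG439 was listed on 3 MI arrays, at 121.0, 94.0 and 67.3, and on all 6 sham arrays, at 41.5 to 210.0, so the values overlapped. It was blank on MI replicates 5 and 6, which were not sparse, while the sham arrays that were not sparse had 160.0, 210.0 and 207.7. RG387 was blank on all MI arrays and at 55.4, 74.4 and 100.7 on sham replicates 1, 5 and 6. At day 7 it was listed on 4 arrays of each operation.

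**Figure D5:**
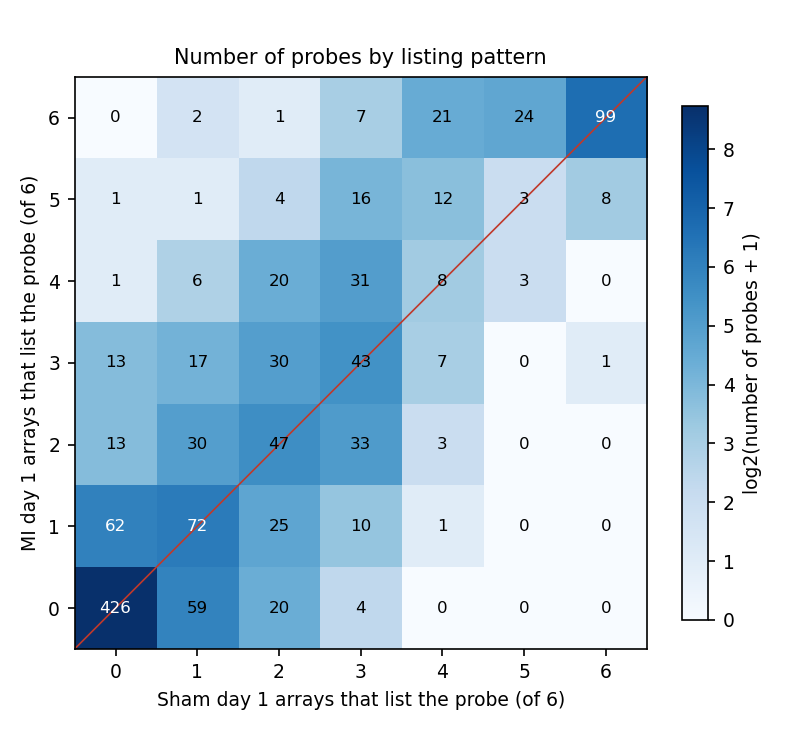
Number of probes by how many of the 6 MI day 1 arrays (vertical) and of the 6 sham day 1 arrays (horizontal) list them, with colour on a log2 scale and equal numbers on the red line. The grid holds 426 probes listed on no array and 99 on all 12; above the line are 312 probes and below it 174.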

How the data were processed

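The authors deposited 1 table of intensities for 1185 probes on 24 arrays, with medians near 100 over the listed probes; scanner, background treatment, scaling and the rule for blanks are stated in no source used here. Groups came from the titles. Members, lists and settings were chosen with earlier results of these data known. Blanks stayed missing, R371 was left out and log2 was taken with no added constant. With limma 3.58.1 in R 4.3.3, lmFit and eBayes fitted all 24 arrays with coefficients for operation, day, their interaction and sparse arrays (A507 to A512) as a block. Probes with at least 3 values in each day 1 group were tested, and p-values adjusted by Benjamini-Hochberg, with calls under 0.05. Alternatives were no block, title runs as the block, array subsets, scaling, an added constant, filters, variance model and thresholds. Permutation tests were enumerated in Python 3.11.15. Probes were named by rule (the 2 lowest p in each direction among probes at or above the lower quartile of intensity, and the 2 largest listing gaps each way), others after their values were seen. Tested on simulated tables with the real blanks for this comparison (283 probes, deposited scale, no array-wide shifts), the fit recovered 55.8%, 86.5% and 100% of probes changed 1.5-fold, 2-fold and 3-fold, with 3.39% of calls false. Each simulated table held more changed probes than were called here, so these shares need not hold for the real values. Columns of other series and pairs of identical arrays numbered 0. The number of arrays limits the precision.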

Additional observations from a re-analysis of the deposited data

Results flagged for a closer look

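Among 26 groups of 4 to 6 values checked (the probes described with values or called on both scales, and the counts of listed probes, each operation apart), 2 held an array that stood apart from the rest, where chance alone gives about 1 in 20. Both were MI replicate 3, a sparse array, on the deposited scale. R364 was 295.6 there against 384.4 to 434.6 on the other MI arrays, and R333 was 90.7 against 164.8 to 180.3. After complete-probe scaling the same array was the highest MI array for R364, at 468.9, and within the MI range for R333.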

How the results depend on the processing

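On the deposited scale 19 probes were called with the block. Among probes listed on all 12 arrays 18 of 99 were called, and without the dimmest 25% 20 of 212, which are larger shares than 19 of 283. The count itself stayed within 1.5 times there, as it did with 16 added before the log (18 of 283) and a robust trend (26 of 283). It was 9 of 421 with at least 2 values per group, 48 of 106 with only the sparse arrays and 0 of 251 without them. With 283 probes tested it was 9 with median centring, 8 with quantile normalization, 8 with title runs as the block and 11 with only the day 1 arrays. It was also 0 without the block, 10 with complete-probe scaling with or without the block, 8 at an adjusted p under 0.01 and 32 under 0.1. Single arrays left out gave 9 to 38 with 188 to 283 probes tested, with changes over 1.5 times without MI replicates 1 (38), 2 (11), 3 (32) and 4 (9) and sham replicates 1 (30), 2 (11), 3 (11), 4 (12) and 6 (36). With complete-probe scaling fewer settings were tried, namely no block, the sparse arrays left out or alone, and each day 1 array left out. Among these the count of 10 changed by over 1.5 times only without the sparse arrays, to 1. The remaining settings were not tried with that scaling. The median difference of 0.18 changed by more than 0.25 only with sparse arrays alone, to 0.47. That limit is the pooled SD of complete-probe levels between arrays of the same operation and kind at day 1. The count of probes differing between days, 0 of 275, became 14 of 106 with sparse arrays alone at day 1 and 5 of 106 with scaling added. In these 2 fits the day and the kind of array cannot be told apart. Listing gaps fell from 312 probes to 36, 6 and 3 at 3, 4 and 5 arrays, and to 197 and 182 within the sparse and the other arrays. Probes without overlap rose from 0 to 4 with scaling. Beyond what each setting changes by construction, the cause was not tested. No paired analysis was possible because the titles give no replicate numbers shared between groups.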
